A study of Mus musculus with 12 samples.

Results

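The hippocampus was represented by 2 of the 12 arrays of a mouse brain study, one from Il18 knockout mice (KO) and one from wild-type mice (WT). They were taken by their titles and set against 9 arrays of 5 other regions: KO and WT arrays of the olfactory bulb, prefrontal cortex, striatum and hypothalamus, and the KO array of the amygdala. The array labelled amygdala WT was left out; across 25409 genes and transcripts its signals correlated more closely with hypothalamus WT (r = 0.993) than with amygdala KO (r = 0.980). With it included, 1561 features would be called higher and 622 lower by the rule given below. KO mice lacked Il18, which encodes the cytokine interleukin-18, and both genotypes were F2 littermates from KO males and C57BL/6J females. All animals were 12-week-old males whose strain the labels give as C57BL/6, perfused with saline before dissection. Each array carried RNA pooled from 5 mice, so a region had 1 pool per genotype, and whether one set of mice served for several regions is not stated. The hippocampus, amygdala and hypothalamus came from the same coronal level, 1.5 to 2.5 mm posterior to bregma, as 1 mm slices. The RNA was that of whole tissue, not of sorted cells.

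The hippocampus is a fold of the medial cortex that takes part in forming memories of events and places. Its principal cells are glutamatergic: granule cells of the dentate gyrus send mossy fibres to CA3 pyramidal cells, which project to CA1, with CA2 between them. Subfields differ in their transcription factors and adhesion molecules, and new granule cells are still added in adult mice.

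Signals are log2 values with the 75th percentile of their own array set to 0, and they compare arrays for 1 gene but not genes with each other. Differences are hippocampus minus the mean of the 5 other regions, fitted with limma with genotype as a term, and a gene was called at an adjusted p under 0.05 and a difference of at least 1 (2-fold). Il18 itself was read at -3.12 in hippocampus KO and 0.61 in hippocampus WT. Over the whole series it lay between -4.35 and -3.12 on the 6 KO arrays and between 0.57 and 1.12 on the 6 WT arrays, in the direction of the labels.

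Across 25446 named genes and unnamed transcripts, 1598 were higher in hippocampus (6.28%) and 607 were lower (2.39%). Of these, 1143 (4.49%) lay above all 9 other arrays on both hippocampus arrays, and 242 (0.951%) lay below all 9. With a stricter filter, added after seeing the data, that kept only features read well above background on 5 or more of the 9 other arrays, 24660 were tested, 1210 were higher, 863 of them without overlap, and 608 were lower. By range alone, with no test, 2887 (11.3%) lay above and 779 (3.06%) below. Among the 14264 named genes, 814 were called higher and 336 lower. The gap between the nearest hippocampus array and the nearest other array exceeded 2-fold for 69 named genes above and 22 below.

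The median difference over all 25446 was 0.10. Scaling by the array median in place of the 75th percentile lowered every difference by about 0.18 and gave 1102 higher and 894 lower calls. Higher calls then made up 55.2% of all calls, where scaling by the 75th percentile gave 72.5%. Quantile normalization gave 55.6%. Genes called higher were dim, with a median level of -3.64 where that of all features was -1.39, and 391 of the 1598 passed the detection filter only through hippocampus.

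Both hippocampus arrays were on 1 slide, and each other region had a slide of its own, so region and slide cannot be told apart. The hippocampus and prefrontal cortex slides were scanned on one day and the 4 others on another day. The comparison of hippocampus with prefrontal cortex is the one comparison within a scan day, and its values are given for most of the genes named. Within that day 1136 features (4.46%) were higher in hippocampus and 700 (2.75%) lower, and 697 features were called higher in both comparisons, 43.6% of the pooled calls and 61.4% of the within-day calls. Only the difference is within the day, as the spread and the genotype term were fitted on all 11 arrays. Both comparisons use the same hippocampus arrays, and prefrontal cortex is 1 of the 5 pooled regions, so part of the sharing is built in. The p-values rest on the spread between the KO and WT pools of the regions with both, after a genotype term shared by all regions. The amygdala, with 1 pool only, adds nothing to that spread. When the spread between the 9 other arrays was used in its place, 78 features (0.307%) stayed higher and 12 (0.0472%) stayed lower. With each region reduced to 1 mean, none of 25443 features passed with limma after adjustment. Of these, 853 had an unadjusted p under 0.05, a smaller share than the 0.05 expected where no feature differs.

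The hippocampus arrays were alike: their signals correlated at r = 0.990 across 25454 features, and with the prefrontal cortex arrays at 0.963 to 0.972. The ranges of amygdala KO, 0.960 to 0.963, and hypothalamus, 0.961 to 0.965, overlapped with the low end of that range. The furthest were striatum arrays, at 0.909 to 0.935. Between hippocampus KO and WT the median absolute difference was 0.15, and 609 features (2.39%) differed by 2-fold, with no replicate pool behind either value.

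**Figure D1:**
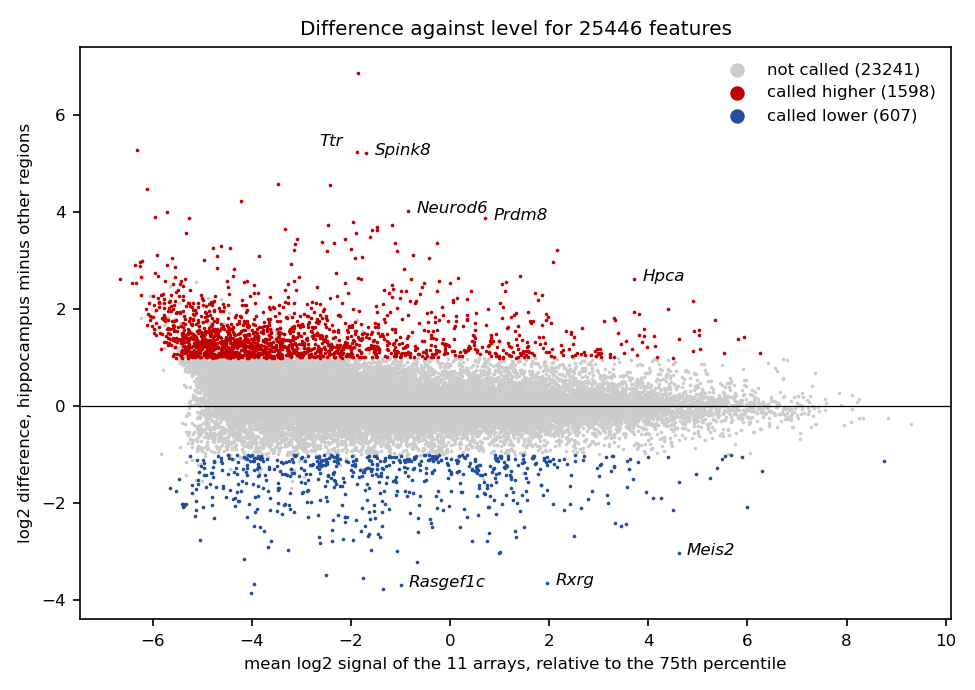
Log2 difference of hippocampus minus the other regions (vertical axis) against the mean log2 signal of the 11 arrays relative to the 75th percentile (horizontal axis) for 25446 features. Red points are the 1598 called higher and blue points the 607 called lower; the called higher group is densest at low signal.

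Spink8, Neurod6 and Prdm8, 3 genes known from hippocampal pyramidal neurons, were the markers given for the label. Spink8 also stands on the CA1 list below, and Neurod6 and Prdm8 on the list of cortical lineage factors. The counts of those lists include them and are not separate support. All 3 lay above every other array on both hippocampus arrays. Spink8, a Kazal-type serine peptidase inhibitor of CA1 pyramidal cells, had 2.90 in hippocampus KO and 2.79 in hippocampus WT, against -7.54, -1.83 and 0.51 as the lowest, median and highest of the other 9 arrays. The difference was 5.22 ± 0.13 (SE; limma adjusted p = 5.26e-05), and 4.63 against prefrontal cortex alone. The lowest other arrays were of the olfactory bulb and the highest was amygdala KO. Neurod6, a basic helix-loop-helix factor of pyramidal neurons, had 2.60 in hippocampus KO and 2.53 in hippocampus WT, against -4.60, -1.06 and 1.26 as the lowest, median and highest of the other 9 arrays. Its difference of 4.03 ± 0.39 (SE; limma adjusted p = 0.00122) shrank to 1.36 against prefrontal cortex, with a limma adjusted p = 0.0963 there. Prdm8, a transcriptional repressor of the same neurons, had 4.17 in hippocampus KO and 4.06 in hippocampus WT, against -4.57, 1.87 and 2.89 as the lowest, median and highest of the other 9 arrays. Prefrontal cortex and amygdala KO came nearest to hippocampus for Prdm8, and olfactory bulb and striatum arrays lay far below. The difference was 3.89 ± 0.19 (SE; limma adjusted p = 0.000187), and 1.24 against prefrontal cortex.

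The promoters of 3 of the leading genes are shown because these genes were among the 15 with the largest differences and belong to the pyramidal cell factors and the dentate granule cells. Of the 15, 10 had an entry in the RefSeq promoter table (GRCm38.p6), which holds 250 bases before and 50 after the annotated start. Capitals mark the E-box CANNTG, the motif that basic helix-loop-helix factors are known to bind, on either strand.
Neurod6, chr6:55681214-55681513, minus strand: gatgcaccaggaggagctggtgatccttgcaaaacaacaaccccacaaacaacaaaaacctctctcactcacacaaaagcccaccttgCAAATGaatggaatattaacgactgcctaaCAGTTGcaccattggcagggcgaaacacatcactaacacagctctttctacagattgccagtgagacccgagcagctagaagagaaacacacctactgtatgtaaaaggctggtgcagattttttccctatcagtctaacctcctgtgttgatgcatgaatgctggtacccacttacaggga
Prdm8, chr5:98180619-98180918, plus strand: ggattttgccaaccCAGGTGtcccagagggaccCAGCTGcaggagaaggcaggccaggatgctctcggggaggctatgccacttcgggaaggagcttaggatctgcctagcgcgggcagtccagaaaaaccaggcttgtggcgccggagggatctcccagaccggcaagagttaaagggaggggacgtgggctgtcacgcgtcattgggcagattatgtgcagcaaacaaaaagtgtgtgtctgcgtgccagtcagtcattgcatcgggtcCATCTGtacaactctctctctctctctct
C1ql2, chr1:120340332-120340631, plus strand: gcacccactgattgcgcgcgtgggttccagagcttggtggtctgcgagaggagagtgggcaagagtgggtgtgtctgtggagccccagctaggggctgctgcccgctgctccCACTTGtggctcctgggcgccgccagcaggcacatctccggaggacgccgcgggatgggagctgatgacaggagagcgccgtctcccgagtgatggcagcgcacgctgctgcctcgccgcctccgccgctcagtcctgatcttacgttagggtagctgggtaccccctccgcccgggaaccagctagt
The Neurod6 window held 2 matches, the Prdm8 window 3 and the C1ql2 window 1. CANNTG was common: 72.3% of all 32851 promoters in the table held it, as did 66.8% of those of the tested named genes and 74.0% of the 543 of genes higher without overlap. The narrower CAGATG, read on both strands and contained in CANNTG, was in 17.2%, 13.1% and 18.6% of the same sets. These matches describe letters in a window and are not sites.

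**Figure D2:**
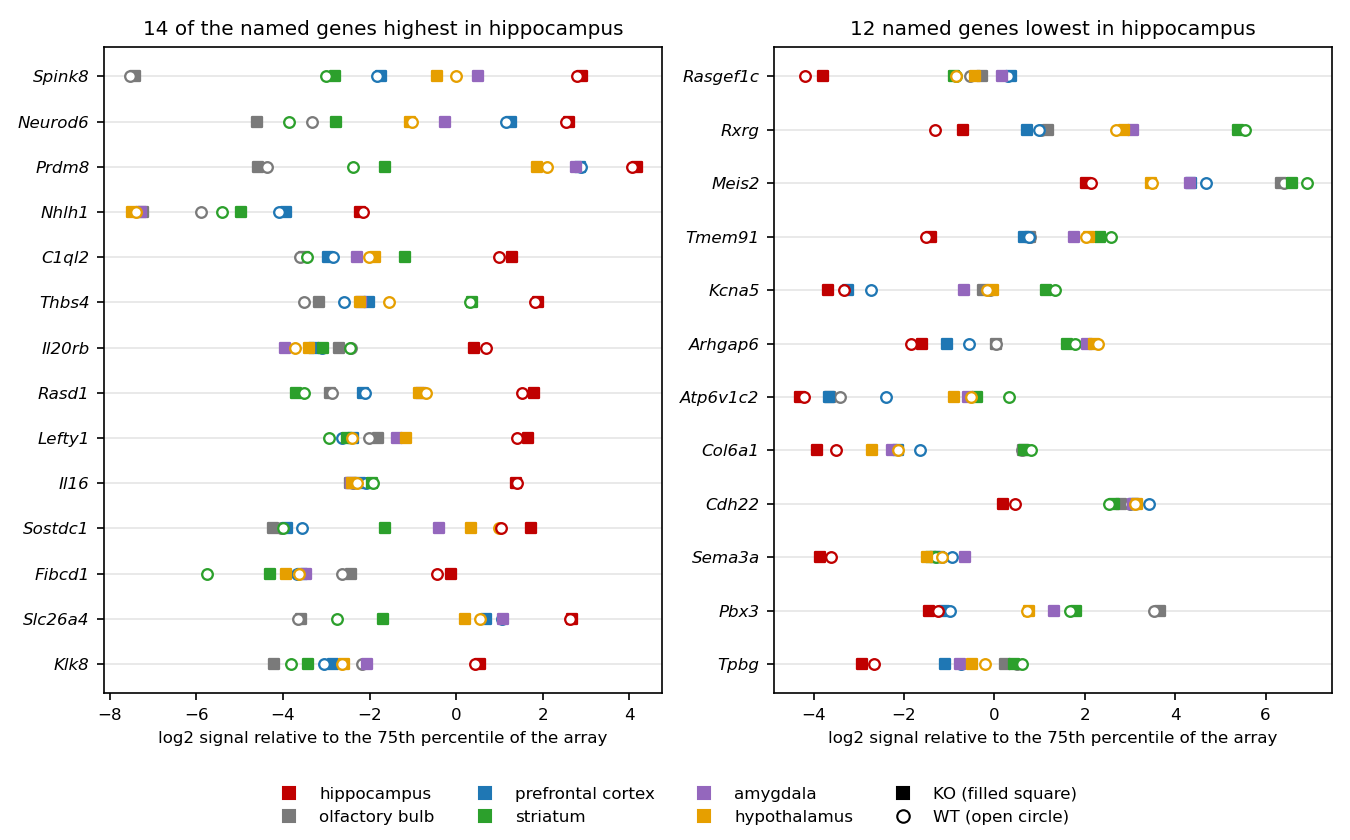
Log2 signal above or below the array's 75th percentile (horizontal axis) on each of 11 arrays for 14 of the 15 named genes with the largest differences above all other arrays and the 12 with the largest below. Hippocampus points (red) are KO, filled squares, and WT, open circles; they sit to the right of every other array in the left panel and to the left of every other array in the right panel.

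The 15 leading genes had differences of 3.36 to 5.22, with limma adjusted p from 4.51e-05 to 0.00612. All 15 lay above all other arrays, as the rule requires. Only 8 of the 15 were read well above background on all 9 other arrays. The differences of the rest draw in part on signals near background, and they are not given as bounds. In the limma fit against the spread of the 9 other arrays, 6 of them were still called, among them C1ql2, Il20rb, Lefty1, Il16 and Klk8. Against prefrontal cortex 14 of 15 were called, Neurod6 being the exception. Nhlh1 passed the filter only through hippocampus, so its place in this count and in the range of adjusted p is no support.

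Several of the 15 stand on none of the lists. Il20rb, a receptor subunit for cytokines of the interleukin-20 family, had 0.41 in hippocampus KO and 0.69 in hippocampus WT, against -3.95, -3.09 and -2.44 as the lowest, median and highest of the other 9 arrays. Hippocampus lay more than 4-fold above all other arrays, and the difference was 3.73 ± 0.16 (SE; limma adjusted p = 0.00015). Klk8, the secreted protease neuropsin, had 0.56 and 0.44 in hippocampus KO and WT, against -4.22 to -2.07 elsewhere with a median of -2.83, with a difference of 3.36 ± 0.47 (SE; limma adjusted p = 0.00383) and 3.44 against prefrontal cortex. Thbs4, a thrombospondin of the extracellular matrix, had 1.89 and 1.82 in hippocampus KO and WT, against -3.51 to 0.37 elsewhere with a median of -2.21. Striatum came nearest for Thbs4, whose difference was 3.74 ± 0.22 (SE; limma adjusted p = 0.000303), and hypothalamus came nearest for Rasd1, a Ras-like protein induced by glucocorticoids, which had 1.80 and 1.52 in hippocampus KO and WT, against -3.71 to -0.71 elsewhere with a median of -2.15. Rasd1 differed by 3.70 ± 0.10 (SE; limma adjusted p = 5.26e-05), and by 3.78 against prefrontal cortex. Slc26a4, an anion exchanger, had 2.67 and 2.63 in hippocampus KO and WT, against -3.65 to 1.08 elsewhere with a median of 0.19, and differed by 3.36 ± 0.27 (SE; limma adjusted p = 0.000728). Nhlh1, a helix-loop-helix factor of young neurons, had -2.23 and -2.15 in hippocampus KO and WT, against -7.48 to -3.93 elsewhere with a median of -5.90. It was well above background on 2 of the 9 other arrays and passed the filter only through hippocampus, where it was high, so no test is given for it. Against prefrontal cortex alone the differences were 3.74 for Il20rb, 1.78 for Slc26a4 and 4.16 for Thbs4.

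Genes of dentate granule cells were often higher in hippocampus. Of 19 measured members 11 were higher and none lower, 10 of the 11 without overlap, and the median difference was 1.07, where 6.28% of all features were higher and the median of all was 0.10. Il16, a cytokine precursor with a neuronal scaffold form, had 1.38 in hippocampus KO and 1.40 in hippocampus WT, against -2.45, -2.30 and -1.92 as the lowest, median and highest of the other 9 arrays. The other 9 arrays lay within a narrow band, and its difference of 3.64 ± 0.059 (SE; limma adjusted p = 4.51e-05) also held against the spread of those arrays (limma adjusted p = 7.78e-05). C1ql2, a secreted C1q-like protein of mossy fibre synapses, had 1.29 in hippocampus KO and 0.99 in hippocampus WT, against -3.60, -2.84 and -1.19 as the lowest, median and highest of the other 9 arrays. Its difference was 3.80 ± 0.45 (SE; limma adjusted p = 0.00236) and the highest of the other arrays was striatum KO. Prox1, the homeodomain factor that gives granule cells their identity, had -2.09 and -2.19 in hippocampus KO and WT, against -5.30 to -3.78 elsewhere with a median of -4.42. Only 6 of the 9 other arrays read Prox1 well above background, and its difference was 2.27 ± 0.22 (SE; limma adjusted p = 0.00127). Sema5a, a semaphorin, differed by 2.05 ± 0.10 (SE; limma adjusted p = 0.000194) and Rfx3, a winged-helix factor, by 1.30 ± 0.11 (SE; limma adjusted p = 0.000851). Trpc6, a cation channel, differed by 1.45 ± 0.13 (SE; limma adjusted p = 0.000862) but by 0.26 against prefrontal cortex. C1ql3, a close relative of C1ql2, was higher by 1.41 in the pooled comparison and lower by 0.76 against prefrontal cortex (limma adjusted p = 0.117). Calb1, the calcium buffer calbindin of granule cells, did not pass, at -0.17: it had 3.22 and 3.16 in hippocampus KO and WT, against -0.13, 4.20 and 4.36 as the lowest, median and highest elsewhere. For 5 of the 11, among them C1ql2, Il16, Prox1 and Rfx3, the call held against the spread of the 9 other arrays. Other lists, given further on, held less often. By that fit 1 of 6 higher CA1 genes and 1 of 7 higher oligodendrocyte genes kept the call. None of the 11 higher CA2 and CA3 genes, 11 higher cortical lineage factors or 11 higher choroid plexus genes did. Nor did any of the 11 lower interneuron genes or 8 lower striatal genes. In the comparison with prefrontal cortex the values were 4.04 for C1ql2, -0.77 for Calb1, 3.54 for Il16, 2.26 for Prox1, 1.46 for Rfx3 and 2.33 for Sema5a.

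Of 20 CA2 and CA3 pyramidal genes, 11 were higher and 1 lower, 7 of the 11 without overlap, with a median of 1.03. Over all features 6.28% were higher and 2.39% lower. The summed signal of the list was 315 to 354 in hippocampus and 176 to 304 elsewhere, highest in striatum WT. Npy2r, a receptor for neuropeptide Y, had -0.053 in hippocampus KO and -0.23 in hippocampus WT, against -6.97, -4.59 and -0.44 as the lowest, median and highest of the other 9 arrays. Its highest other array was amygdala KO, which came within 2-fold of hippocampus, and the difference was 3.34 ± 0.28 (SE; limma adjusted p = 0.000764). St18, a zinc-finger factor, had -0.21 and -0.12 in hippocampus KO and WT, against -3.44 to -1.19 elsewhere with a median of -2.80. It lay above all other arrays and differed by 2.33 ± 0.059 (SE; limma adjusted p = 5.26e-05), and by 3.0 against prefrontal cortex. Rgs14, a signalling regulator known to limit plasticity in CA2, had 3.59 and 3.61 in hippocampus KO and WT, against -1.73 to 3.22 elsewhere with a median of 2.29, and differed by 1.91 ± 0.066 (SE). Olfactory bulb was the region far below the rest for this gene. Bok, an apoptosis regulator, differed by 1.95 and Grik4, a kainate receptor subunit of CA3, by 1.79, both without overlap. Sostdc1, a secreted antagonist of bone morphogenetic proteins, differed by 3.50 ± 0.56 (SE; limma adjusted p = 0.00612), but hypothalamus WT at 1.00 nearly reached hippocampus WT at 1.03, and the gene also stands on the choroid plexus list. Dkk3, a secreted protein related to Wnt antagonists, and Nectin3, an adhesion molecule, were higher by 1.85 and 1.16 in the pooled comparison, with -0.31 and -0.038 against prefrontal cortex. Coch, an extracellular matrix protein, was the member called lower, at -2.48. Pcp4, a calmodulin regulator of CA2, did not reach the threshold, with 5.00 and 5.07 in hippocampus KO and WT and a highest value of 7.73 in striatum WT. Within the scan day, set against prefrontal cortex, differences were 0.69 for Bok, -2.42 for Coch, 0.63 for Grik4, 4.98 for Npy2r, 1.22 for Rgs14 and 5.12 for Sostdc1, and limma did not call Bok or Grik4 there.

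Of 14 CA1 pyramidal genes 6 were higher (6.28% over all features) and none lower, 3 without overlap, Spink8 among them, with a median of 0.82. The summed signal of the list was 310 to 317 in hippocampus and 88.5 to 378 elsewhere. Both prefrontal cortex arrays, at 354 and 378, lay above hippocampus. Lefty1, an antagonist of Nodal signalling, had 1.66 in hippocampus KO and 1.41 in hippocampus WT, against -2.93, -2.39 and -1.15 as the lowest, median and highest of the other 9 arrays. It differed by 3.64 ± 0.21 (SE; limma adjusted p = 0.000275) and lay more than 4-fold above the nearest other array. Fibcd1, a membrane receptor that binds chitin, had -0.13 and -0.43 in hippocampus KO and WT, against -5.77 to -2.44 elsewhere with a median of -3.62, and differed by 3.45 ± 0.31 (SE; limma adjusted p = 0.000982). Pou3f1, a POU-domain factor, was higher by 2.0, but overlapped with the striatum, whose WT array had 6.46 where hippocampus KO and WT had 6.05 and 5.85. Itpka, an inositol phosphate kinase of dendritic spines, and Cck, the peptide cholecystokinin, were higher by 1.57 and 1.1 and reached 6.5 and 7.30 in prefrontal cortex. Their differences against prefrontal cortex were -0.081 and -0.67. Wfs1, a protein of the endoplasmic reticulum that marks CA1, differed by 0.60, under 2-fold, and amygdala KO at 3.98 lay above both hippocampus arrays at 3.75. Of 11 mossy cell genes none was higher and 1 was lower: Necab1, a calcium-binding protein, at -1.21. All these subfield lists were read in the same RNA as markers of choroid plexus, myelin and thalamus, which are given further on and which were also raised, and their part in the result was not tested. In such samples fewer cells of a type and less RNA per cell cannot be told apart. Against prefrontal cortex alone the differences were 3.35 for Fibcd1, 4.05 for Lefty1, -1.19 for Necab1, 0.80 for Pou3f1 and 0.52 for Wfs1, and limma did not call Pou3f1 there.

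**Figure D3:**
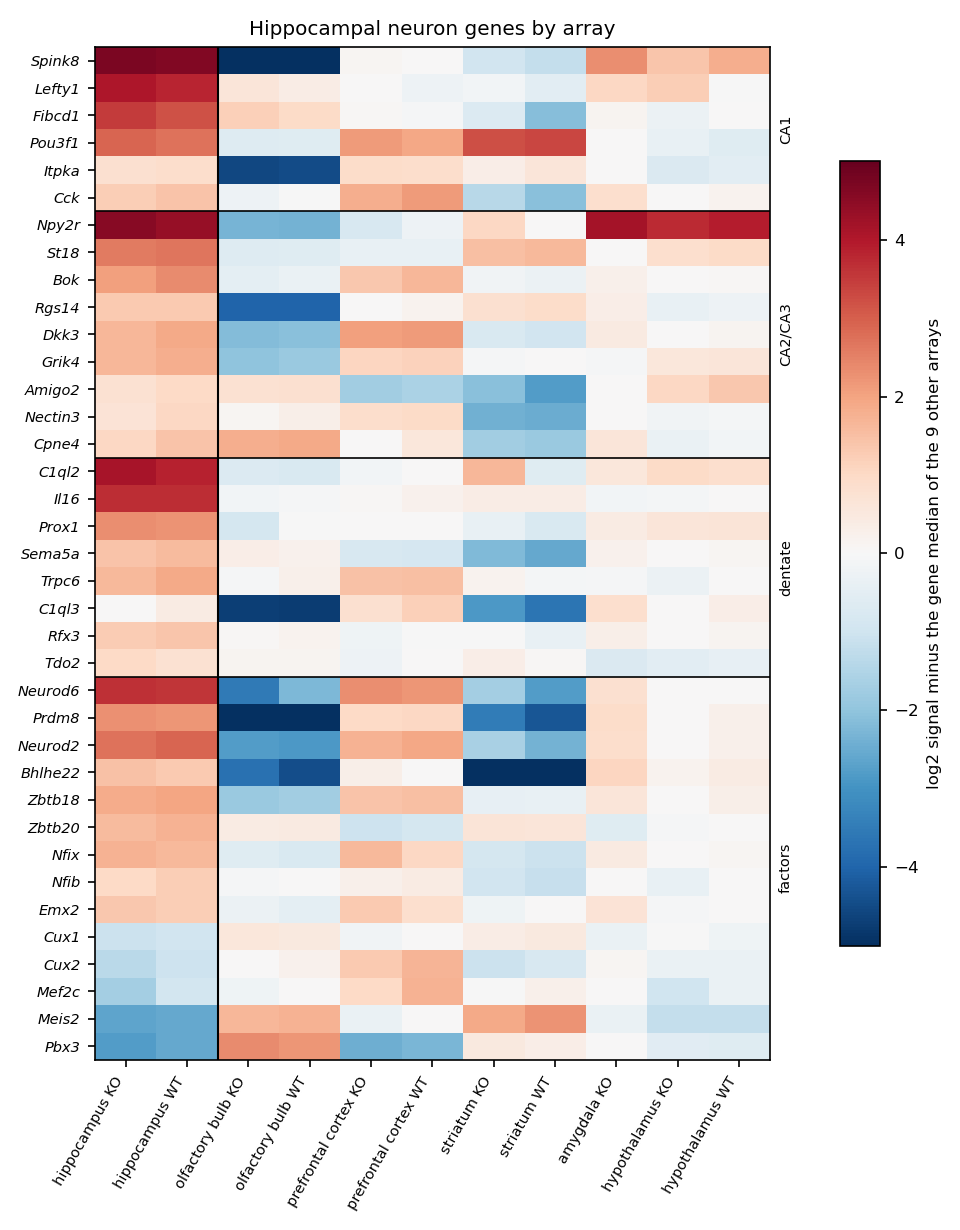
Log2 signal of hippocampal subfield genes and transcription factors on each array, minus the median of the 9 other arrays for that gene; colours are cut at -5 and 5. The subfield rows were picked from members called higher. Members not called or called lower, among them Coch, Pcp4, Calb1 and Wfs1, are not shown. The hippocampus KO and WT columns stand left of the black line, and prefrontal cortex columns carry many of the same genes at levels near the hippocampus.

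Of 28 measured transcription factors of the cortical lineage, 11 were called higher and 4 lower, 9 of the 11 without overlap, with a median of 0.68. Neurod6 and Prdm8, given above as markers, are among the 9. The summed signal of the list was 247 to 271 in hippocampus and 97.7 to 290 elsewhere, highest in prefrontal cortex WT. Over all features 6.28% were called higher and 2.39% lower, so higher calls also outnumbered lower ones there. Neurod2, a factor related to Neurod6, had 4.82 in hippocampus KO and 4.98 in hippocampus WT, against -0.80, 2.09 and 4.02 as the lowest, median and highest of the other 9 arrays. It lay above all other arrays, differed by 3.22 ± 0.20 (SE; limma adjusted p = 0.000346), and by 0.97 against prefrontal cortex; its probes gave 2.21 to 3.22 in the pooled comparison. Bhlhe22, known to act with Prdm8 as a repressor, had 2.10 and 1.95 in hippocampus KO and WT, against -5.66 to 1.68 elsewhere with a median of 0.62. It differed by 3.12 ± 0.22 (SE; limma adjusted p = 0.000477), with striatum the lowest region. With another background correction (normexp on the median spot signal) the Bhlhe22 difference was 2.19. Zbtb20, a zinc-finger repressor known to set CA1 identity, had 2.93 and 3.11 in hippocampus KO and WT, against 0.31 to 2.01 elsewhere with a median of 1.36. Its difference of 1.76 ± 0.067 (SE) became 2.63 against prefrontal cortex, the region where Zbtb20 was lowest. Zbtb18, Nfix, Nfib, Emx2 and Tcf4, all factors of cortical neurons or progenitors, were higher by 1.90, 1.67, 1.27, 1.07 and 1.06. Fezf2, a factor of deep cortical layers, was higher by 1.17 in the pooled comparison and lower by 0.93 against prefrontal cortex. Mef2c, Cux2, Cux1 and Nr2f2 were lower, at -1.51, -1.31, -1.09 and -1.03. Mef2c, an activity-regulated factor, had 2.07 and 2.88 in hippocampus KO and WT, against 2.80 to 5.52 elsewhere with a median of 3.79. Hippocampus KO lay lower than WT for Mef2c, and the lowest other array overlapped with hippocampus WT. Cux1 lay below all other arrays, with 0.32 and 0.44 in hippocampus KO and WT and a lowest value of 1.06 elsewhere. Of the adult neurogenesis list, 3 of 15 were higher, Hopx at 1.71, Neurod1 at 1.57 and Neurog2 at 1.05, all without overlap. Dcx, the microtubule protein of young neurons, was lower, at -1.31 and was highest in olfactory bulb WT at 3.08. Tfap2c, a factor of intermediate progenitors, was -1.28 in the pooled comparison and 0.69 against prefrontal cortex. In the comparison with prefrontal cortex the values were 1.26 for Bhlhe22, -0.91 for Cux1, -2.70 for Cux2, -1.12 for Dcx, 0.24 for Emx2, 1.02 for Hopx, -2.67 for Mef2c, 1.05 for Neurod1, 0.61 for Neurog2, 0.77 for Nfib, 0.35 for Nfix, 0.45 for Nr2f2, 0.59 for Tcf4 and 0.44 for Zbtb18, and limma did not call Cux1, Emx2, Neurog2, Nfib, Nfix, Nr2f2, Tcf4 or Zbtb18 there.

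Among receptors, those for glutamate were mixed: 4 of 23 were higher and 2 lower, with a median of -0.10, where 6.28% and 2.39% of all features were. Cnih2, an auxiliary subunit of AMPA receptors, had 6.25 in hippocampus KO and 6.31 in hippocampus WT, against 3.66, 4.96 and 5.32 as the lowest, median and highest of the other 9 arrays, and lay above all of them with a difference of 1.47 ± 0.059 (SE; limma adjusted p = 0.000124). Grik4, Grin2a and Cacng8 were higher by 1.79, 1.86 and 1.41, and against prefrontal cortex the values were 0.63, 0.72 and 0.44. Gria4 and Grm8, a fast AMPA subunit and a presynaptic metabotropic receptor, were lower, at -1.58 and -2.03. Gria1, the AMPA subunit abundant in hippocampus, lay above all other arrays with 6.51 and 6.59 in hippocampus KO and WT and at most 6.26 elsewhere, and its difference of 0.77 was under 2-fold. Of 14 GABA-A receptor subunits, Gabra5 was higher and Gabra3 and Gabrg1 lower. Gabra5, the subunit of extrasynaptic receptors on pyramidal dendrites, had 1.90 in hippocampus KO and 1.95 in hippocampus WT, against -2.20, 0.20 and 1.45 as the lowest, median and highest of the other 9 arrays. It lay above all other arrays and differed by 1.89 ± 0.083 (SE; limma adjusted p = 0.00015), and by 1.76 against prefrontal cortex. Gabra3 had -0.86 and -0.60 in hippocampus KO and WT, against -0.14 to 1.90 elsewhere with a median of 1.24, below all other arrays, and differed by -1.81 ± 0.085 (SE; limma adjusted p = 0.000166). Of 16 serotonin and acetylcholine receptors, Htr5b and Htr1a were higher, both without overlap. Htr5b had -1.06 and -0.80 in hippocampus KO and WT, against -4.39 to -1.83 elsewhere with a median of -2.81, and differed by 2.16 ± 0.10 (SE; limma adjusted p = 0.000171). Htr1a, the inhibitory serotonin receptor, differed by 1.64 ± 0.18 (SE; limma adjusted p = 0.0017), and by 0.53 against prefrontal cortex. Within the scan day, set against prefrontal cortex, differences were 1.32 for Cnih2, -2.43 for Gabra3, 1.1 for Gria1, -1.38 for Gria4, -2.61 for Grm8 and 3.24 for Htr5b.

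Of 22 postsynaptic signalling genes Hpca, Camk2a and Itpka were higher and Camk2d lower, with a median of 0.44. Hpca, the calcium sensor hippocalcin, had 5.91 in hippocampus KO and 5.84 in hippocampus WT, against 0.55, 3.64 and 4.97 as the lowest, median and highest of the other 9 arrays. It lay above all other arrays and differed by 2.62 ± 0.095 (SE; limma adjusted p = 0.000103), and by 1.68 against prefrontal cortex. Camk2a, the kinase of spine plasticity, was higher by 1.78 ± 0.40 (SE) on its brightest probe, but its probes gave 0.53 to 1.78, and striatum WT at 6.79 overlapped with hippocampus. Camk2d, a related isoform, was lower, at -1.91, with probes at -1.91 to -0.72. Of 29 potassium and HCN channel genes Kcnab2, Kcnab1 and Kcnj6 were higher, by 1.50, 1.18 and 1.17, and Kcnh5 was lower, at -1.15. The shares called higher and lower were 13.6% and 4.55% on the postsynaptic list and 10.3% and 3.45% on the channel list. Over all features they were 6.28% and 2.39%. These are few calls on short lists, and no test was made of the shares. Against prefrontal cortex alone the differences were 0.22 for Camk2a, -1.70 for Camk2d, 1.03 for Kcnab1, 0.53 for Kcnab2, -1.64 for Kcnh5 and 0.65 for Kcnj6, and limma did not call Camk2a, Kcnab2 or Kcnj6 there.

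Genes of corticosteroid handling and trophic support were higher in 4 of 12 cases and lower in 1, the 4 without overlap, where 6.28% and 2.39% of all features were. Hsd11b1, the enzyme that regenerates active corticosterone, had 2.45 in hippocampus KO and 2.34 in hippocampus WT, against -1.15, 0.47 and 1.25 as the lowest, median and highest of the other 9 arrays. It differed by 2.39 ± 0.11 (SE; limma adjusted p = 0.000152), and by 1.40 against prefrontal cortex. Sgk1, a kinase induced by corticosteroids, was higher by 1.01. Ntf3, the neurotrophin of dentate granule cells, had -1.26 and -1.22 in hippocampus KO and WT, against -6.43 to -2.78 elsewhere with a median of -4.22. Only 6 of the 9 other arrays read it well above background, and the difference was 3.09 ± 0.48 (SE; limma adjusted p = 0.00536). Bdnf, the neurotrophin of mossy fibres, had 0.97 and 1.31 in hippocampus KO and WT, against -4.71 to 0.42 elsewhere with a median of 0.017. Striatum arrays were far lower than the rest for Bdnf, whose difference was 2.13 ± 0.41 (SE; limma adjusted p = 0.0107), and 0.74 against prefrontal cortex, where limma did not call it. Crhr1, the receptor of corticotropin-releasing hormone, was lower, at -1.29 on its brightest probe, while its other probe reached 0.058. In the comparison with prefrontal cortex the values were -2.00 for Crhr1, 3.01 for Ntf3 and 0.68 for Sgk1, and limma did not call Sgk1 there.

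Axon guidance and adhesion genes moved both ways: 9 of 32 were higher, 8 without overlap, and 5 were lower, 4 without overlap, with a median of 0.59, where 6.28% and 2.39% of all features were higher and lower. Of the 32, 2 passed the filter only through hippocampus, and of the other 30, 8 were higher. Epha7, an ephrin receptor, had 1.07 in hippocampus KO and 1.18 in hippocampus WT, against -2.13, -0.95 and -0.52 as the lowest, median and highest of the other 9 arrays. It lay above all other arrays and differed by 2.16 ± 0.10 (SE; limma adjusted p = 0.000166), and by 1.68 against prefrontal cortex. Epha4, Epha6 and Ephb2, receptors of the same family, were higher by 1.79, 1.54 and 1.30. The ligands Efna5 and Efnb2 went the other way, Efna5 by -1.83 and Efnb2 by -1.76. The probes of Efna5 disagreed, ranging over -1.83 to 0.53. Efnb2 had 0.0042 and 0.27 in hippocampus KO and WT, against 1.25 to 2.24 elsewhere with a median of 1.93, below every other array. Pcdh8 and Slit1, an adhesion molecule and a repellent, were higher by 1.06 and 1.11, and Cdh13, a cadherin, was lower, at -1.15. Among the semaphorin genes, Nrp1, a receptor subunit, and Sema3e, a ligand, were higher by 1.58 and 1.71, and Sema3a and Sema3f, also ligands, were lower, at -2.63 and -1.10. Sema3a had -3.86 in hippocampus KO and -3.62 in hippocampus WT, against -1.49, -1.22 and -0.65 as the lowest, median and highest of the other 9 arrays. The 9 other arrays spanned under 1 log2 unit, hippocampus lay more than 4-fold below them, and the difference was -2.63 ± 0.07 (SE; limma adjusted p = 5.26e-05) on its brightest probe, with probes at -2.63 to -1.57. Of 30 Wnt pathway genes Wnt2, Dkk3, Wnt9a and Tcf7l2 were higher and Dkkl1 and Sfrp2 lower, at -2.28 and -1.28. Wnt9a was 1.12 in the pooled comparison and -1.01 against prefrontal cortex, and its probes differed in sign. Wnt2, a ligand, was higher by 2.62, although striatum KO at 2.17 lay above both hippocampus arrays at 1.35 and 1.38. Within the scan day, set against prefrontal cortex, differences were -0.81 for Cdh13, -4.46 for Dkkl1, -2.59 for Efna5, -1.95 for Efnb2, 0.72 for Epha4, 2.09 for Epha6, 0.32 for Ephb2, 1.71 for Nrp1, 1.19 for Pcdh8, -2.65 for Sema3a, 1.96 for Sema3e, -0.57 for Sema3f, -0.89 for Sfrp2, 1.01 for Slit1 and 1.29 for Wnt2, and limma did not call Cdh13, Epha4, Ephb2, Sema3f or Sfrp2 there.

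The 12 strongest lower genes read well above background on both hippocampus arrays lay below every other array, as the rule requires. Their differences ran from -3.69 to -2.60, with limma adjusted p from 5.26e-05 to 0.000728. Rasgef1c, a guanine nucleotide exchange factor for Ras-like proteins, had -3.80 in hippocampus KO and -4.20 in hippocampus WT, against -0.90, -0.42 and 0.36 as the lowest, median and highest of the other 9 arrays. It lay more than 4-fold below the nearest other array, and differed by -3.69 ± 0.11 (SE; limma adjusted p = 7.05e-05). Rxrg, a retinoid receptor, had -0.70 in hippocampus KO and -1.32 in hippocampus WT, against 0.72, 2.69 and 5.55 as the lowest, median and highest of the other 9 arrays. Striatum was far above the rest for Rxrg, with a difference of -3.65 ± 0.17 (SE; limma adjusted p = 0.000161), and -1.86 against prefrontal cortex. Meis2, a TALE-class homeodomain factor of striatal and olfactory bulb neurons, had 2.02 and 2.13 in hippocampus KO and WT, against 3.47 to 6.91 elsewhere with a median of 4.68, and differed by -3.03 ± 0.088 (SE; limma adjusted p = 5.93e-05). Pbx3, of the same class, had -1.46 and -1.25 in hippocampus KO and WT, against -1.12 to 3.66 elsewhere with a median of 1.32, and -0.30 against prefrontal cortex. Cdh22, a cadherin, had 0.19 and 0.46 in hippocampus KO and WT, against 2.54 to 3.42 elsewhere with a median of 3.06. It differed by -2.67 ± 0.11 (SE; limma adjusted p = 0.000124), and by -2.93 against prefrontal cortex. Tpbg, a membrane glycoprotein that modulates Wnt signals, differed by -2.60 on its brightest probe (probes -2.60 to -1.55) and Tmem91, a transmembrane protein, by -3.02. The remaining lower genes, the potassium channel gene Kcna5, the GTPase-activating protein gene Arhgap6, the proton pump subunit Atp6v1c2 and the collagen Col6a1, differed by -2.99, -2.78, -2.74 and -2.70. The limma fit against the spread of the 9 other arrays still called Rasgef1c, Cdh22, Sema3a and Tpbg, and the prefrontal cortex comparison called all but Kcna5, Arhgap6 and Pbx3. Against prefrontal cortex alone the differences were -0.92 for Arhgap6, -1.23 for Atp6v1c2, -1.81 for Col6a1, -0.52 for Kcna5, -2.43 for Meis2, -4.33 for Rasgef1c, -2.17 for Tmem91 and -1.89 for Tpbg, and limma did not call Arhgap6 or Kcna5 there.

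Some lower genes were not well above background on either hippocampus array, so only a bound applies: the mean of the other arrays against the lowest signal read well above background on the hippocampus arrays, or the gene's own value where higher. Aqp5, a water channel, was at least 4.29-fold lower in hippocampus (limma adjusted p = 0.00303), with measured means of -5.73 in hippocampus and -2.83 elsewhere. Il1rapl2, a member of the interleukin-1 receptor family, was at least 3.56-fold lower (limma adjusted p = 0.000372), with measured means of -5.25 and -3.09. Ptgis and Taf7 gave no fold, as their bound was under 1.

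In the interneuron, striatal, olfactory bulb, cortical layer and hypothalamus lists lower calls outnumbered higher ones; the thalamus list, given further on, had 4 higher and 1 lower. Over all features 2.39% were lower and 6.28% higher. Of 23 interneuron genes 11 were lower and 1 higher, 7 of the 11 without overlap, with a median of -0.96. Some members also stand on other lists, Penk and Tac1 on the striatal list and Sp8 on the olfactory bulb list. The summed signal of the interneuron list was 107 to 109 in hippocampus, 159 to 178 in prefrontal cortex and 706 to 746 in striatum. Slc32a1, the vesicular GABA transporter, had 5.26 and 5.10 in hippocampus KO and WT, against 5.56 to 7.15 elsewhere with a median of 6.51, and Gad1, the GABA-making enzyme, differed by -1.06. Penk, the enkephalin precursor, had 4.23 and 4.36 in hippocampus KO and WT, against 4.33 to 9.03 elsewhere with a median of 6.15. Prefrontal cortex WT overlapped with hippocampus for Penk, and the difference of -2.08 became -0.047 against that region. Pvalb, the calcium buffer of fast-spiking cells, was the one called higher, by 1.54, and was -0.75 against prefrontal cortex. Of 22 striatal projection neuron genes 8 were lower and none higher, with the summed signal at 55.4 to 55.7 in hippocampus and 63.0 to 973 elsewhere, in units of the 75th percentile. Of 16 olfactory bulb genes 7 were lower and 1 higher, Slc17a7, a vesicular glutamate transporter, by 1.13 (and -0.44 against prefrontal cortex). Of 20 hypothalamus genes the peptide genes Trh, Gal and Pomc and the factor Nkx2-1 were lower, at -2.64, -1.69, -1.21 and -1.61, and Gpr50, an orphan receptor, was higher by 1.1. The 4 lower ones did not lie below prefrontal cortex, against which they were 0.0027, 0.13, 0.79 and 0.98. Of 20 cortical layer genes 8 were lower and 3 higher, the 3 being Scnn1a, Crym and Fezf2, of which only Scnn1a lay above all other arrays (1.70). In the comparison with prefrontal cortex the values were -0.29 for Gad1, 1.00 for Gpr50 and 2.22 for Scnn1a, and limma did not call Gad1 or Gpr50 there.

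Markers of other cell types were also raised on the hippocampus arrays. Of 14 choroid plexus genes 11 were called higher, 2 without overlap, with a median of 2.64, where 6.28% of all features were higher. Of the 14, 4 (Ttr, Otx2, Calml4 and Tmem72) passed the filter only through hippocampus, and of the other 10, 7 were higher, with a median of 2.28. Ttr, the thyroid hormone carrier of choroid plexus, had 3.07 in hippocampus KO and 2.02 in hippocampus WT, against -6.91, -4.20 and 2.71 as the lowest, median and highest of the other 9 arrays. Hypothalamus WT at 2.71 lay between the hippocampus arrays, and 4 of the 9 other arrays read Ttr well above background. The summed choroid plexus signal was 73.6 in hippocampus KO and 45.3 in hippocampus WT, against 11 to 56.4 elsewhere, the highest being hypothalamus WT. This sum includes Ttr and the others of the 4 that passed only through hippocampus, and it was not taken without them. Of 8 ependymal genes Mia, Dynlrb2 and Foxj1 were higher, by 1.41, 1.20 and 1.14, none of them without overlap, with sums of 10.3 to 12.5 in hippocampus and 3.35 to 14.6 elsewhere. Of 14 thalamus genes 4 were higher, all without overlap, and 1 lower (Gng4, -2.32), against 6.28% and 2.39% of all features, with sums of 20.9 to 24.0 in hippocampus and 8.83 to 39.7 elsewhere. Prkcd, a kinase of thalamic relay neurons, had 1.21 in hippocampus KO and 1.01 in hippocampus WT, against -1.90, -1.38 and -0.72 as the lowest, median and highest of the other 9 arrays. It differed by 2.38 ± 0.092 (SE; limma adjusted p = 0.000111), and by 2.91 against prefrontal cortex. Lhx9, Tnnt1 and Tcf7l2 were higher by 2.13, 1.73 and 1.1, and the probes of Tcf7l2 gave 0.29 to 1.36. Within the scan day, set against prefrontal cortex, differences were 1.78 for Dynlrb2, 2.61 for Foxj1, -1.02 for Gng4, 2.95 for Lhx9, 2.22 for Mia, 1.71 for Tcf7l2 and 1.38 for Tnnt1.

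Of 12 oligodendrocyte genes 7 were higher, all without overlap, and none lower, with a median of 1.16, where 6.28% of all features were higher. Mal, a myelin membrane protein, had 2.68 in hippocampus KO and 2.23 in hippocampus WT, against 0.32, 0.92 and 1.43 as the lowest, median and highest of the other 9 arrays. It lay above all of them, with a difference of 1.61 ± 0.12 (SE; limma adjusted p = 0.000505). Mog, Opalin and Cldn11, other myelin proteins, were higher by 1.59, 1.80 and 1.43. The summed list was 264 to 282 in hippocampus and 96.3 to 592 elsewhere, the highest being striatum WT, so the sum overlapped where these 7 members did not. Microglia and endothelium lists had no call among 15 and 16 genes. The astrocyte list had 1 lower among 15, Fabp7 at -1.04 and 0.074 against prefrontal cortex. The red blood cell list had no call among 3, the meninges list 1 higher among 12 (Lum, 1.45) and the oligodendrocyte precursor list 1 higher among 8 (Enpp6, 1.12, which passed the filter only through hippocampus). Of 16 immediate early genes Jun was higher by 1.36, and Egr2 and Fos were lower, at -1.35 and -1.02. Against prefrontal cortex alone the differences were 1.52 for Cldn11, -1.20 for Egr2, 1.50 for Enpp6, -0.92 for Fos, 1.35 for Jun, 1.18 for Lum, 1.89 for Mal, 1.80 for Mog and 1.75 for Opalin, and limma did not call Fos there.

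**Figure D4:**
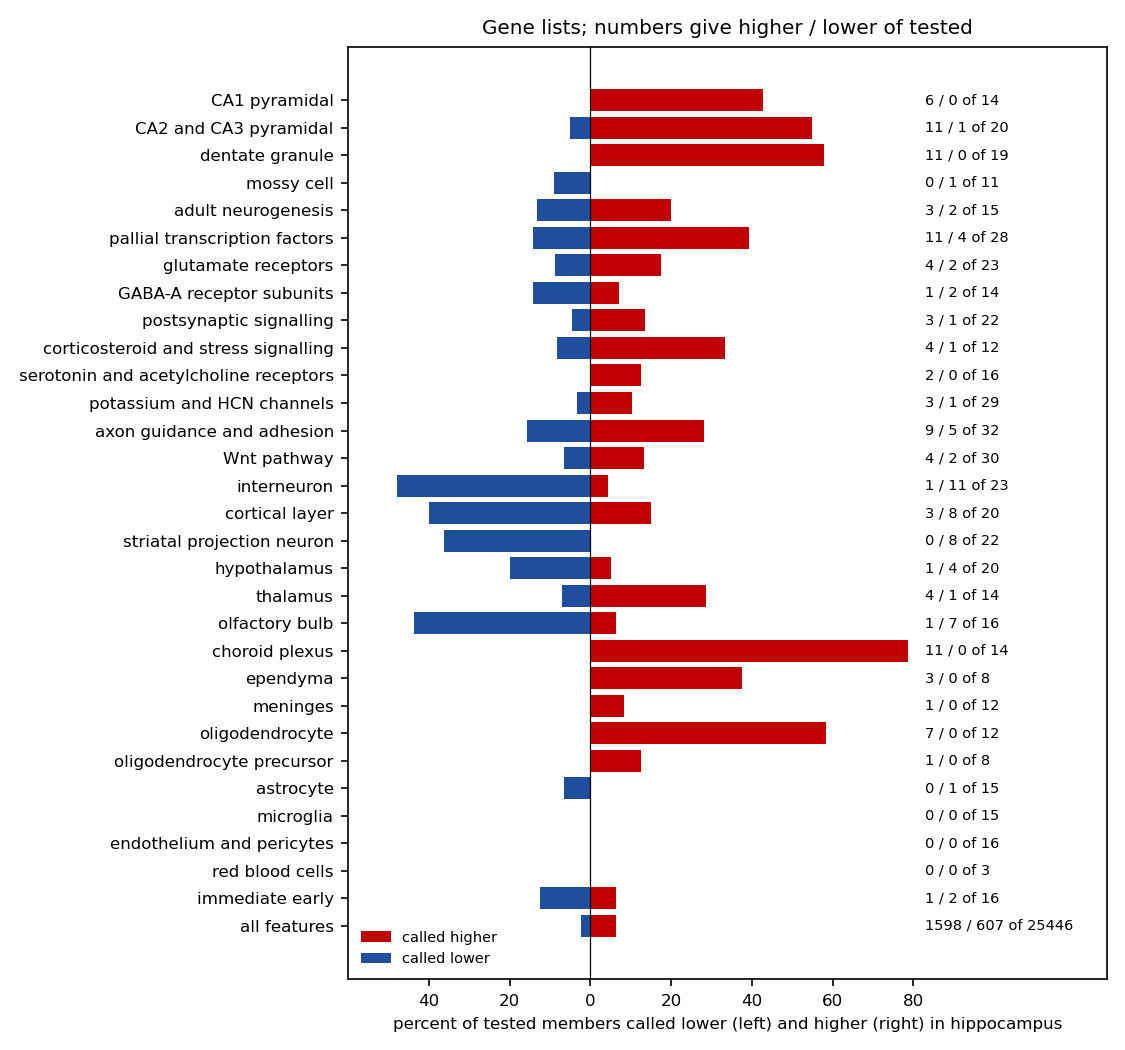
Percent of the measured members of each list called lower (left) or higher (right) in hippocampus by limma, with the counts beside the bars and all features in the bottom row. Dentate granule, CA2 and CA3, choroid plexus and oligodendrocyte lists extend furthest right, and interneuron and olfactory bulb lists furthest left.

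**Figure D5:**
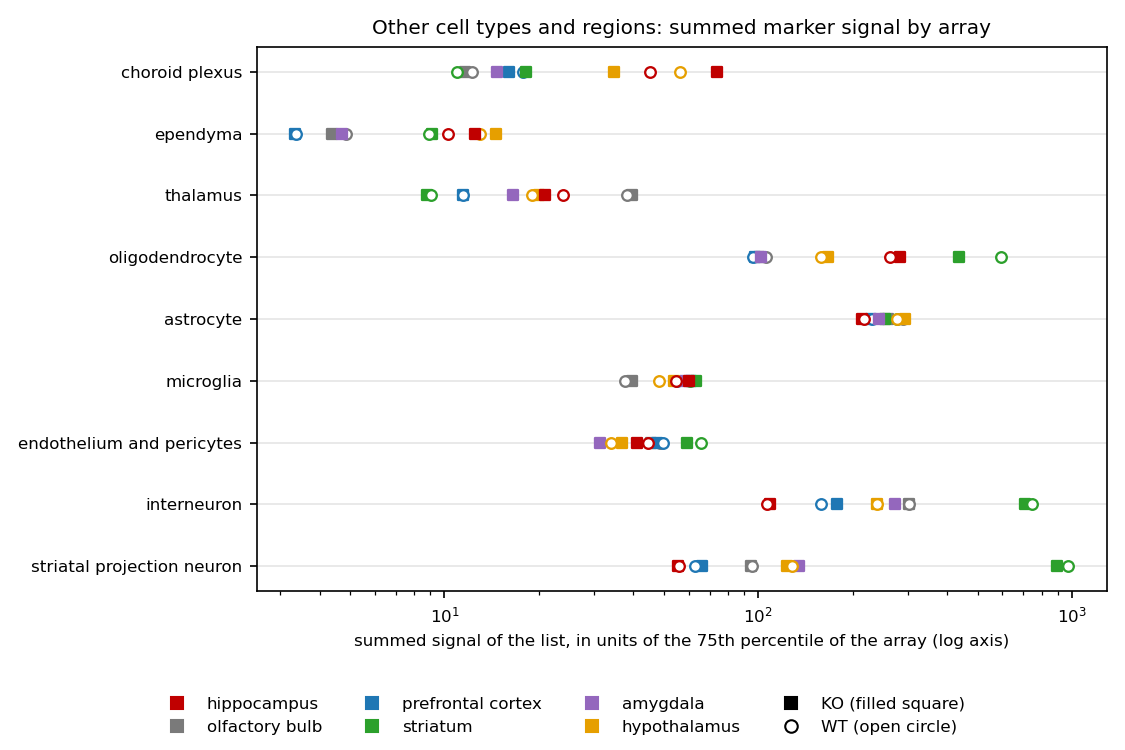
Summed signal of marker lists on each of 11 arrays, in units of the array's 75th percentile (log axis). Hippocampus KO, the filled red square, has the highest choroid plexus sum (73.6), while striatum arrays have the highest oligodendrocyte, interneuron and striatal sums. The choroid plexus sum includes 4 genes that passed the filter only through hippocampus.

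Among the 1143 features higher in hippocampus without overlap, the highest other region was prefrontal cortex for 35.3% and olfactory bulb for 33.4%. Among all 25446 features those shares were 17.7% and 24.5%. The striatum was the highest other region for 11.3% of the 1143, and for 35.2% of all features. Striatum WT and KO were also the dimmest arrays, with 75th percentiles of 208 and 272, by which their values were scaled. They had 60.8% and 67.1% of spots well above background, the lowest shares. No test was made of these shares.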

How the data were processed

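Labelled RNA (Cy3, from 400 ng of total RNA) was hybridised to Agilent 1-colour mouse arrays. Per the file headers the authors' scanner software was Agilent Feature Extraction 9.5.3.1, and the deposited intensity values are its processed signals; 0 gene spots were saturated. Each array had 43379 gene spots of 41174 probes, of which 22951 (55.7%) had a gene name.

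Processed signals were log2-transformed and the array's 75th percentile was subtracted, with outlier spots left out. Probes passed where well above background on both hippocampus arrays or on 5 or more of the 9 others. For each gene the brightest probe, by the mean of all 11 arrays, was kept. Differences were tested with limma 3.58.1 in R 4.3.3 with Benjamini-Hochberg adjustment over 25446 features; 8 of the 25454 that passed lacked a region and were not fitted. The members and lists were chosen with earlier results of these data known. Named genes are the 15 largest higher, 12 largest lower and up to 6 bounded, all without overlap, the 3 given markers, and up to 6 called members per list with exceptions; 31 lists held 569 symbols, 493 of them tested. The number of arrays limits the precision. The 75th percentile was 553 to 669 in hippocampus and 208 to 768 elsewhere, and spots well above background were 76.4% to 77.7% and 60.8% to 81.3%.

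Some genes that the rule names are not reported here. The p-values measure the spread between pools only. The planned background correction on the mean spot signal could not be run, as the files hold no such column; the median spot signal was used in its place.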

Additional observations from a re-analysis of the deposited data

How the results depend on the processing

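The counts of higher and lower calls stayed within 1.5 times of 1598 and 607 under array median and quantile scaling, no detection filter, the mean of a gene's probes, robust variances, no genotype term, and both amygdala settings. Normexp on the median spot signal, chosen after seeing the data, gave 392 higher and 333 lower calls, 282 higher without overlap. Requiring detection on all 11 arrays gave 584 higher calls, 410 without overlap, of 19373 features. Against the spread of the 9 other arrays 78 were higher and 12 lower, all without overlap; on 1 mean per region both were 0. Without overlap, array median scaling gave 714 higher and 409 lower and quantile normalization 728 and 376; lower without overlap was 368 without both striatum arrays and 700 against prefrontal cortex alone, where 1 region is compared. Leaving out 1 array gave 1129 to 1760 higher calls and 460 to 631 lower, 941 to 1337 higher and 231 to 318 lower without overlap, for the 5 regions with both arrays; without amygdala KO there were 1432 higher and 708 lower. Where a hippocampus array was left out, the lone sample was assumed to vary like the other regions. Of 189 named genes, 21 lost the call without hippocampus WT, 25 without hippocampus KO, 38 under normexp and 161 against the spread of the 9 arrays. In the main fit 185 of the 189 were called. Against prefrontal cortex alone, also added after seeing the data, 56 lost the call with the direction kept. A further 19 changed direction: C1ql3 -0.76, Cck -0.67, Dkk3 -0.31, Fabp7 0.074, Fezf2 -0.93, Gal 0.13, Isl1 1.61, Itpka -0.081, Nectin3 -0.038, Nkx2-1 0.98, Nr2f2 0.45, Pomc 0.79, Pvalb -0.75, Rgs9 0.36, Slc17a7 -0.44, Sp8 0.0026, Tfap2c 0.69, Trh 0.0027 and Wnt9a -1.01. Some of these 19, among them C1ql3 and Cck, also lost the call and are not counted in the 56. Calb1 was 0.083, 0.065 and 0.060 without amygdala KO, both striatum or both hypothalamus arrays. The cause was not tested. Among 59 called named genes with several probes, the probes of Crhr1, Efna5, Otof and Wnt9a differed in sign, and those of 14 lay over 1 log2 apart: these 4 with Camk2a, Camk2d, Drd5, Folr1, Foxp2, Neurod2, Sema3a, Tcf7l2, Tdo2 and Tpbg. Genotype was a term of the fit; without it 1569 were higher and 562 lower. No paired analysis was possible because the labels give no replicate numbers that tie pools of different regions together.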

Other observations

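Several further genes stood apart on the hippocampus arrays; they were chosen after their values were seen. Il1r1, the signalling receptor of interleukin-1, had 0.20 in hippocampus KO and 0.41 in hippocampus WT, against -2.68, -2.33 and -2.03 as the lowest, median and highest of the other 9 arrays. It differed by 2.64 ± 0.068 (SE; limma adjusted p = 5.26e-05), and by 2.40 against prefrontal cortex, and the 9 other arrays spanned under 1 log2 unit. Tanc1, a scaffold protein of excitatory synapses, had 4.55 and 4.55 in hippocampus KO and WT, against 1.04 to 1.98 elsewhere with a median of 1.61, with a difference of 2.98 ± 0.085 (SE; limma adjusted p = 5.74e-05). Cebpd, a stress-responsive transcription factor, differed by 2.68 ± 0.095 (SE; limma adjusted p = 9.95e-05), and Tgfb2, a growth factor, by 1.87 ± 0.068 (SE; limma adjusted p = 0.000103). Drd5, a dopamine receptor, had 0.43 and 0.59 in hippocampus KO and WT, against -3.34 to -1.44 elsewhere with a median of -2.67, and its probes gave differences of 0.71 to 3.06. Olfml2b, an extracellular matrix protein, differed by 3.09 ± 0.24 (SE; limma adjusted p = 0.000672). Against prefrontal cortex the values were 3.25 for Tanc1, 3.13 for Cebpd, 2.39 for Tgfb2, 2.01 for Drd5 and 2.55 for Olfml2b. Il1r1 and these 5 were also called against the spread of the 9 other arrays. Cabp7, a calcium-binding protein, had -1.63 and -2.18 in hippocampus KO and WT, against -6.41 to -4.18 elsewhere with a median of -5.35. It was well above background on 3 of the 9 other arrays and passed the filter only through hippocampus, so no test is given for it.

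Of 630 features named for olfactory receptor genes, 135 (21.4%) were called higher and none lower, where 6.28% of all features were higher. No test was made of that share. Their median level was -2.65 in hippocampus KO and -2.75 in hippocampus WT, against -3.85 to -2.93 elsewhere. With normexp 4 of 630 were called higher, and of the 333 read well above background on all 11 arrays 34 were. Against prefrontal cortex the count was 42. Array median scaling gave 83 and quantile normalization 70, where 1102 and 1098 of all features were called higher. The 630 were not split by whether they passed the filter only through hippocampus, so the 21.4% may depend in part on the filter.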
